A study of Mus musculus with 4 samples.

Results

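Samples labelled as neurospheres from E2f4 knockout and wild-type mouse embryos were compared for 10 genes of bone morphogenetic protein (BMP) signalling. These were the ligand gene Bmp4, the antagonist gene Chrd and the receptor genes Bmpr1a and Bmpr2. The others were the signal transducer genes Smad1 and Smad5 and the target genes Id1, Id2, Id3 and Id4. The members were 10 of the 18193 genes named on the arrays. All probe sets annotated to exactly 1 of these symbols were taken, 25 in all. There was 1 RNA sample labelled E2f4 knockout and 1 labelled wild type. Each was described as E12.5 (embryonic day) forebrain neurospheres, with ventral telencephalon given as the source. Each RNA was hybridised to an Affymetrix MOE430A and an MOE430B array, and knockout was set against wild type within each array design. The deleted part of E2f4, the strain, the passage of the cultures and the number of embryos behind each sample are not given in the sources used here. With 1 sample of each genotype no test across samples was possible, the values carry no error between cultures, and genotype cannot be told apart from any other difference between these RNAs.

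BMP ligands bind paired type I and type II receptor kinases, which phosphorylate the Smad1, Smad5 and Smad9 proteins. These enter the nucleus with Smad4 and switch on target genes, among which the Id genes are the best known. Id proteins have a helix-loop-helix domain but no DNA-binding region, and by pairing with E proteins they block proneural helix-loop-helix factors. In the embryonic telencephalon BMPs come mainly from the dorsal midline, and Id genes are known for keeping progenitors from differentiating.

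Of 9 members with a measured probe set, 6 were higher and 3 lower in the knockout sample, where 49.8% of all 10171 measured genes were higher. That share is the background for the counts of genes higher or lower in every list below. The median log2 ratio was 0.06 for the members and -0.001 over all measured genes. Id3 and Chrd were lower by 1.57-fold and 1.62-fold, each on its 1 probe set. Bmpr2 was lower by 1.72-fold on average, from 2 probe sets that disagreed. Id4 was 1.23-fold higher with all 3 probe sets on the same side, and Id1, Id2, Bmpr1a, Smad1 and Smad5 lay within 1.14-fold. Bmp4 was too dim to compare. No member was at least 1.5-fold higher and 3 of 9 were at least 1.5-fold lower, where 3.51% and 3.86% of all measured genes were. Outside that count, Bmpr1a probe set 1425494_s_at was at least 1.67-fold higher, with its wild-type signal too dim to measure. None of the 9 differed by 2-fold as a gene, where 0.531% of measured genes were at least 2-fold higher, 0.482% at least 2-fold lower and 1.01% either. Members had been chosen with earlier results of these data known, so this count is a description.

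Signals are MAS5 values, one number per probe set in arbitrary units, scaled by the authors to a like trimmed mean of about 1500 on each array. A probe set was called measured where both arrays of its design were at or above the median signal of that design, 736 on MOE430A and 942 on MOE430B, referred to as the floor. Of the 25 member probe sets, 17 were measured, 2 passed the floor in the knockout sample only, 1 in the wild type only, and 5 were below it in both. A gene's value was the mean log2 ratio over its measured probe sets. Knockout and wild-type arrays of each design shared a hybridisation day. The 99 probe sets measured on both designs give a repeat of the same RNA pair, and the SD of the difference of their log2 ratios was 0.31. The central 95% of log2 ratios ran from -0.60 to 0.59 on MOE430A and from -0.87 to 0.86 on MOE430B, which includes any real differences between the samples. E2f4 itself read 1535 in the knockout sample and 1812 in the wild type on its 1 probe set, whose place relative to the deletion is not given, so it does not check the label. Gapdh signal at the 3' end over that at the 5' end, which reflects RNA integrity, lay between 0.799 and 0.898 on the knockout arrays and between 0.862 and 0.948 on the wild-type arrays.

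**Figure D1:**
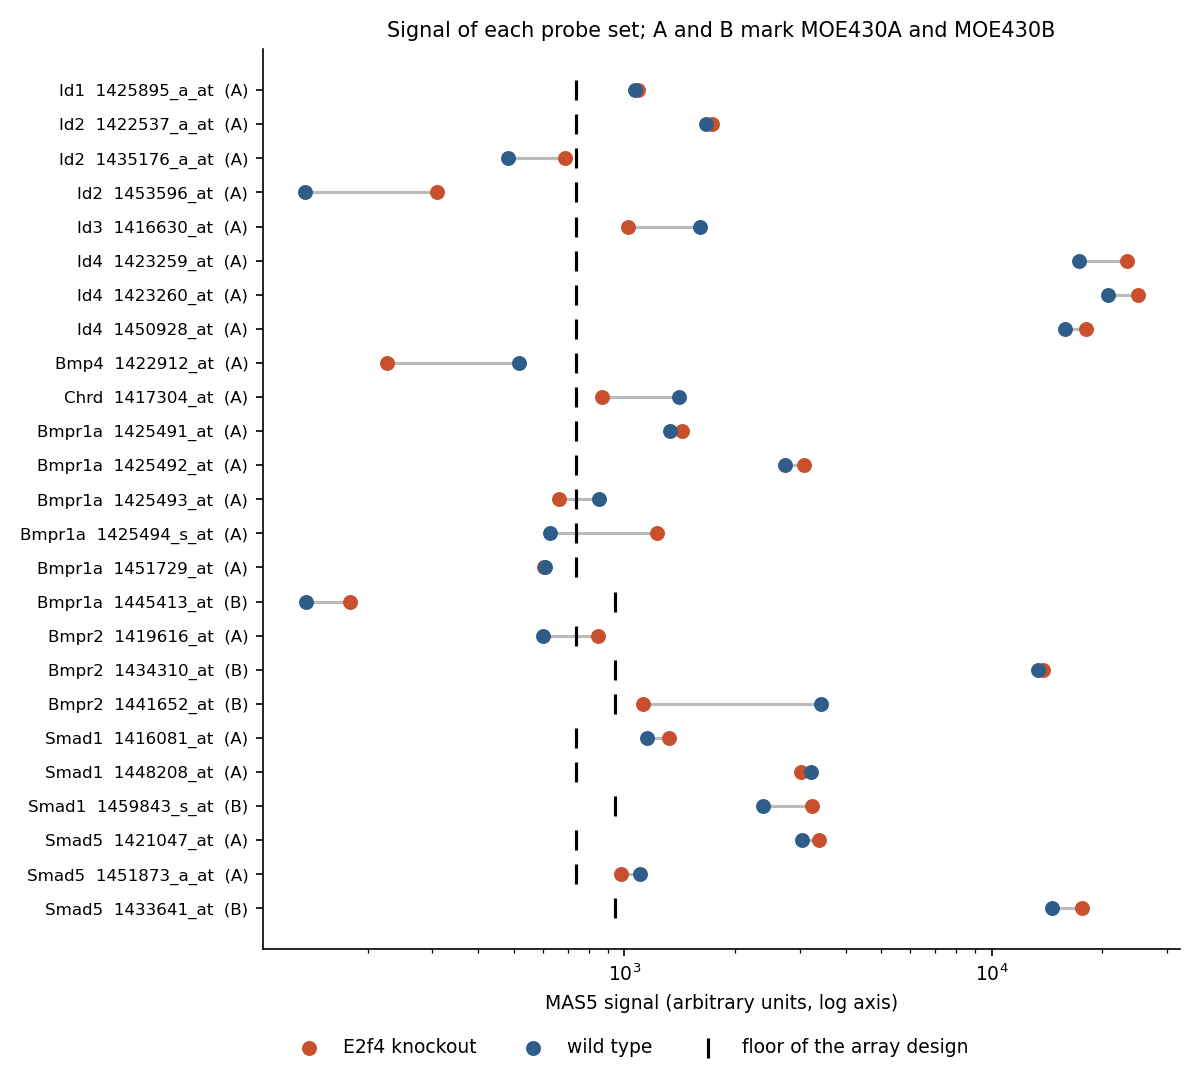
MAS5 signal (log axis) of the 25 probe sets in the knockout and wild-type samples, with the floor of each array design as a black tick. The 3 Id4 probe sets lie between 18062 and 25029 in the knockout sample, to the right of their wild-type values, while Id3, Chrd and 1 Bmpr2 probe set lie to the left of theirs.

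Among the ligand and its antagonist, Bmp4 (gene ID 12159), a BMP of the dorsal midline, had a signal of 225 in the knockout sample and 515 in the wild type on probe set 1422912_at. Both lay below the floor, so no fold is given. Chrd (gene ID 12667) encodes chordin, a secreted protein that binds BMPs and keeps them from their receptors. Its probe set 1417304_at read 867 in the knockout sample and 1407 in the wild type, a log2 ratio of -0.70. The knockout value stood close above the floor of 736. Of the 1040 MOE430A probe sets of like signal, 3.37% were as far to the lower side, and their central 95% ran from -0.74 to 0.75. The log2 ratio of Chrd was -0.42 with a pseudocount equal to the floor, which ended its 1.5-fold difference, and a floor at the 70th percentile left it unmeasured.

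The receptors gave mixed readings. Bmpr1a (gene ID 12166) encodes a type I receptor kinase. Its 2 measured probe sets read 1436 and 3091 in the knockout sample, against 1333 and 2736 in the wild type, log2 ratios of 0.11 and 0.18. Both were slightly higher in the knockout sample, by less than the SD of 0.31 between repeat hybridisations. The 5 Bmpr1a probe sets of MOE430A were designed from the same sequence record, yet the others did not share a direction. Probe set 1425494_s_at passed the floor in the knockout sample only, at 1230 against 627 in the wild type, and was at least 1.67-fold higher. Probe set 1425493_at passed it in the wild type only, at 664 in the knockout sample and 852 in the wild type, and was at least 1.16-fold lower. The remaining Bmpr1a probe sets were below the floor in both samples, at 604 in the knockout sample and 607 in the wild type for 1451729_at, and at 179 in the knockout sample and 136 in the wild type for 1445413_at.

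Bmpr2 (gene ID 12168) encodes the type II receptor that activates the type I kinases. On MOE430B its brightest probe set, 1434310_at, read 13788 in the knockout sample and 13346 in the wild type, a log2 ratio of 0.05. The other measured one, 1441652_at, read 1121 in the knockout sample and 3419 in the wild type, a log2 ratio of -1.61 or 3.05-fold lower. The bright probe set thus read alike in both samples and the dim one did not. The remaining one, 1419616_at on MOE430A, passed the floor in the knockout sample only, at 849 against 599 in the wild type, and was at least 1.15-fold higher. The 2 measured Bmpr2 probe sets were 1.66 apart on the log2 scale, where 2494 genes with 2 measured probe sets had a median distance of 0.29 and 10 of them, or 0.401%, were at least as far apart. Of all measured MOE430B probe sets, 7.92% were at least 1.5-fold higher, 8.09% were at least 1.5-fold lower, 1.46% were at least 2-fold lower and 0.105% were as far to the lower side as 1441652_at. The mean of -0.78 therefore rests on 1 of 3 probe sets, and with the brightest probe set per gene Bmpr2 stood at 0.05. The transcripts behind the Bmpr2 probe sets were not analysed here.

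Smad1 (gene ID 17125) and Smad5 (gene ID 17129), the transducers that carry the BMP signal to the nucleus, differed little. Smad1 read 1321, 3027 and 3243 in the knockout sample on 1416081_at, 1448208_at and 1459843_s_at, against 1151, 3222 and 2389 in the wild type. Its log2 ratios were 0.20, -0.09 and 0.44, with a mean of 0.19 ± 0.26 (SD over 3 probe sets, of which the 2 on MOE430A were designed from the same sequence record). Smad5 read 3383, 978 and 17621 in the knockout sample on 1421047_at, 1451873_a_at and 1433641_at, against 3042, 1101 and 14624 in the wild type. Its log2 ratios were 0.16, -0.17 and 0.27, with a mean of 0.09 ± 0.23 (SD over 3 probe sets). In each gene 2 of 3 probe sets were higher in the knockout sample, and neither mean exceeded the spread between its own probe sets. The SD over probe sets covers differences between probes of the same 2 RNAs, not between cultures.

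Among the Id genes, only Id4 had more than 1 measured probe set. Id4 (gene ID 15904) is known from mice to be needed for the timely differentiation of telencephalic progenitors. Probe sets 1423259_at, 1423260_at and 1450928_at read 23420.2, 25029 and 18062 in the knockout sample, against 17298, 20705 and 15866 in the wild type. All 3 were higher in the knockout sample, with log2 ratios of 0.44, 0.28 and 0.19 and a mean of 0.30 ± 0.13 (SD over 3 probe sets). The 3 were designed from the same sequence record and are not independent. Among MOE430A probe sets of like signal, where the spread is narrow, the central 95% ran from -0.35 to 0.39, so that 1423259_at lay outside it and the other two inside. Of 935 genes with 3 measured probe sets, 15.8% had all 3 higher and 7.17% had a mean at least as high as that of Id4. Under the alternatives that measured it, 10 in all, the log2 ratio of Id4 lay between 0.27 and 0.30.

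Id3 (gene ID 15903), like Id1 a direct target of Smad1 and Smad5, stood on the opposite side. Its probe set 1416630_at read 1023 in the knockout sample and 1605 in the wild type, a log2 ratio of -0.65. Of 10399 measured MOE430A probe sets, 2.64% were at least 1.5-fold higher, 2.7% were at least 1.5-fold lower and 1.79% were as far to the lower side as Id3. Among those of like signal, 2.88% were as far, and the central 95% from -0.68 to 0.72 held it. With a pseudocount equal to the floor the log2 ratio of Id3 was -0.42, which ended its 1.5-fold difference, and with the floor at the 70th percentile it was not measured.

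Id1 (gene ID 15901), on the same array design, read 1087 in the knockout sample and 1069 in the wild type on 1425895_a_at, a log2 ratio of 0.03. Id2 (gene ID 15902), an Id gene also found in neurons, read 1735 in the knockout sample and 1665 in the wild type on 1422537_a_at, a log2 ratio of 0.06. Id1 and Id2 thus read nearly alike in both samples. The other Id2 probe sets were below the floor in both, at 687 in the knockout sample and 483 in the wild type for 1435176_a_at, and at 309 in the knockout sample and 134 in the wild type for 1453596_at. Taken with no floor, all 3 gave Id2 a log2 ratio of 0.58, which rests on these dim signals. The median of the Id genes was 0.04, with 3 of 4 higher, and it was -0.17 without probe sets ending in _x_at, _s_at or _a_at, where Id3 and Id4 alone were left.

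**Figure D2:**
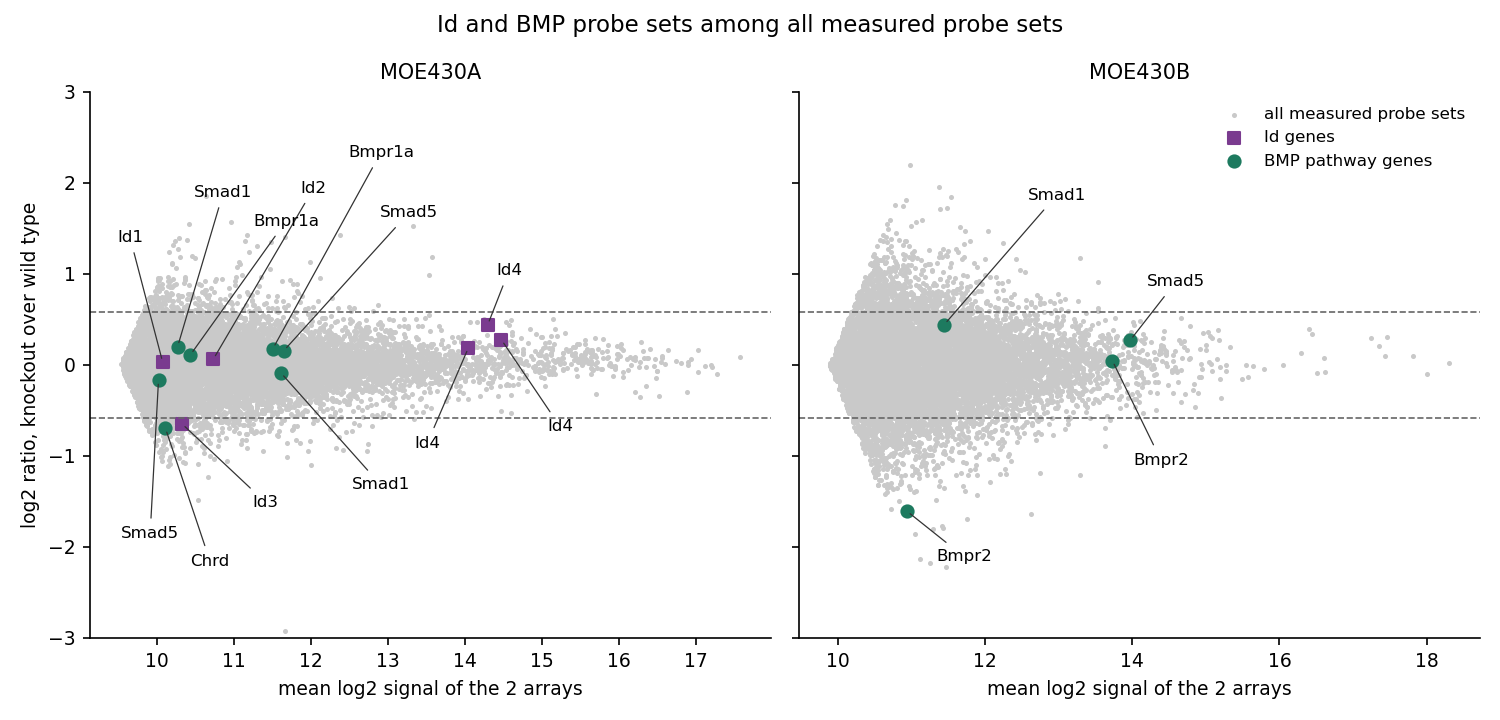
Log2 ratio of knockout over wild type against the mean log2 signal of the arrays, for all measured probe sets of each design (grey), Id genes (squares) and BMP pathway genes (circles), with dashed lines at 1.5-fold. Id3 at -0.65 and Chrd at -0.70 lie at low signal, where the grey cloud is wide, Id4 lies at high signal, where it is narrow, and 1 Bmpr2 probe set lies at -1.61.

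Since E2F4 acts at promoters and the Id genes are Smad targets, the promoter windows of 3 Id genes and of Chrd are shown, as given by RefSeq on GRCm38.p6, from 250 bases before to 50 bases after the annotated start. Capitals mark matches to the letters searched on both strands, of which TTCCCGC is an E2F-type run. Another E2F-type run searched for was TTGGCGC. For the BMP side the searches were for GGCGCC, the core of a GC-rich BMP-responsive element, and for the Smad-binding element letters CAGACA. The windows are chr12:25096043-25096342 on the minus strand for Id2, chr4:136143572-136143871 on the plus strand for Id3, chr13:48260866-48261165 on the plus strand for Id4 and chr16:20732877-20733176 on the plus strand for Chrd.
Id2: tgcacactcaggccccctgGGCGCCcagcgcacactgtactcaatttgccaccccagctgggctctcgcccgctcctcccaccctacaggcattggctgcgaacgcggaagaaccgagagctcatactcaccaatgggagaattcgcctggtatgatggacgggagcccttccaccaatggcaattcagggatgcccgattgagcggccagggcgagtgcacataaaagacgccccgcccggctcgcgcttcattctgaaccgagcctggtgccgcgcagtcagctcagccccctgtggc
Id3: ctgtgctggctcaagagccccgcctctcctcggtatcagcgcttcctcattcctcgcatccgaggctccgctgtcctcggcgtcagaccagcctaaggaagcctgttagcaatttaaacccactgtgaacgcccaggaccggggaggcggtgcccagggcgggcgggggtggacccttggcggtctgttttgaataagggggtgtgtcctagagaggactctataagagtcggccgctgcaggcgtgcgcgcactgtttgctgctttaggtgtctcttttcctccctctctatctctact
Id4: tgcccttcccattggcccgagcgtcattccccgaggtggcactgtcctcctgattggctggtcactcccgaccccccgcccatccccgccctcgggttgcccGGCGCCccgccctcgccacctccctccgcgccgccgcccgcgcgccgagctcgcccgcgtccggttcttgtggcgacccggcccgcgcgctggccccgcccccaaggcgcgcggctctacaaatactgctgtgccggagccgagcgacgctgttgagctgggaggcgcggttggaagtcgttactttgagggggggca
Chrd: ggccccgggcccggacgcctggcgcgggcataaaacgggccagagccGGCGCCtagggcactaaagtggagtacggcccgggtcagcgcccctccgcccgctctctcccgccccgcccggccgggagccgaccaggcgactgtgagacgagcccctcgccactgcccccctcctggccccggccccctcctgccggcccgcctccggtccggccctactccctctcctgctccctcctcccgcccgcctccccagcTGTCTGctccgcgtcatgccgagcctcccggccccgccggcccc

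Of these 4 windows, Id2, Id4 and Chrd held GGCGCC, at 231, 148 and 203 bases before the start, and Id3 held none of the letters searched. Chrd also held CAGACA on the opposite strand, from base 7 of the transcript. Across the 9 members that matched, with 11 promoter windows, no window held either E2F-type run, against 4.60% and 2.45% of all 32851 promoters. GGCGCC was in 7 of the 11 windows, from 6 of 9 members, against 11.9% of all promoters. Overlapping Smad5 windows held the same match, so the count of windows includes it more than once. Id1 was the member without a window. The members' windows were rich in G and C, from 59.3% to 79.3%, where the median promoter had 52.7%, and of the 10219 promoters with at least 59.3%, 30.03% held GGCGCC. The Smad element CAGACA was in 1 of 11 windows, against 21.0% of all promoters. A match describes letters in a window of 300 bases and is not a site.

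Wider lists of the pathway, written with earlier results of these data known, held 43 measured genes beside the members. Of these, 4 (9.30%) passed 1.5-fold, 1 on the higher side and 3 on the lower, where 7.37% of all measured genes were past 1.5-fold either way. BMP ligands were mostly dim, with 3 of 11 genes on the arrays measured and all 3 lower. Bmp8b read 1307 in the knockout sample and 2582 in the wild type on 1440706_at, a log2 ratio of -0.98. Its other probe set was below the floor, and with no floor the sign of Bmp8b turned, at 0.13. With a pseudocount equal to the floor its log2 ratio was -0.29, short of 1.5-fold. Bmp5, a ligand of the dorsal midline, read 989 in the knockout sample and 1379 in the wild type, a log2 ratio of -0.48, and Gdf2, which encodes BMP9, stood at -0.23 (both genes were chosen after their values were seen). Bmp7 and Bmp15 passed the floor in the wild type only, by less than 1.5-fold (both named after their values were seen), and the other ligands, 6 in all, were below it in both samples.

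Receptors and co-receptors were all measured, with 7 of 12 higher, a median log2 ratio of 0.02 and Bmpr2 the 1 gene past 1.5-fold. Acvr2a, a type II receptor shared with activin, was highest at 0.33, and Rgmb, a co-receptor, was at -0.38 from 6 probe sets that ranged from -1.05 to 0.21 (both genes were chosen after their values were seen). Of the BMP Smads, 3 of 6 were measured and all 3 were slightly higher, with Smad4, the shared partner, at 0.04. Smad9, Smad6 and Smad7, named after their values were seen, were not measured, the last of these passing the floor in the wild type only. Among secreted antagonists and modulators, 5 of 21 were measured, with 4 lower and a median of -0.05. Chrd was the 1 past 1.5-fold. Noggin (Nog) and gremlin (Grem1), which also bind BMPs and were named after their values were seen, were below the floor in both samples. Fst, which encodes the activin antagonist follistatin, passed the floor in the knockout sample only on 1434458_at, at 1557 against 271 in the wild type, and was at least 1.65-fold higher. Its other probe set passed the floor in the wild type only, at 588 in the knockout sample and 782 in the wild type, so the Fst probe sets disagreed.

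Downstream and inside the cell, no intracellular regulator passed 1.5-fold, with 8 of 9 measured, 5 higher and a median of 0.06. The farthest from 0 were Skil, a Smad corepressor, at -0.22, Smurf1, a ubiquitin ligase for Smads, at -0.18, and Ctdsp1, a phosphatase, at 0.17. BMP targets other than the Id genes were mostly below the floor, with 2 of 8 measured. Msx2, a homeobox target, read 1066 in the knockout sample and 1189 in the wild type, a log2 ratio of -0.16, and Hey1 read 1569.7 in the knockout sample and 1691 in the wild type, a log2 ratio of -0.10. Msx1 passed the floor in the wild type only on both probe sets, and was at least 1.36-fold lower on the brighter one, chosen after its values were seen. Beside Id3, these targets gave no further gene past 1.5-fold.

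In the activin and TGF-beta branch, which uses Smad2 and Smad3, 8 of 17 genes were measured, 5 of them higher, with a median of 0.07. Inhbb, which encodes an activin subunit, read 1059 in the knockout sample and 2498 in the wild type on 1426859_at, a log2 ratio of -1.23, while 1426858_at passed the floor in the knockout sample only, at 850.2 against 655 in the wild type. The Inhbb probe sets thus pointed opposite ways. Its log2 ratio was -0.43 with a floor at the 30th percentile, -0.44 with no floor and -0.33 with the pseudocount, each short of 1.5-fold. Tgfb1 read 2659.9 in the knockout sample and 1704 in the wild type on 1 measured probe set, a log2 ratio of 0.64. With the pseudocount Tgfb1 was at 0.43, short of 1.5-fold, and with no floor, where its dim probe set entered, at 1.24.

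Partners of the Id proteins showed a median of 0.15 in the 7 measured of 10 genes, with 5 higher, and the median turned to -0.09 with the brightest probe set per gene. The E protein genes Tcf3, Tcf4 and Tcf12, whose products Id proteins bind directly, stood at 0.15, 0.06 and 0.21, chosen after their values were seen, with Tcf12 probe sets from -0.46 to 0.77. Hes5, a Notch effector, was at -0.86 from probe sets at -0.24 and -1.48, and its brighter probe set read 2521 in the knockout sample and 2984 in the wild type. Hes5 stood at -0.24, short of 1.5-fold, with the floor at the 70th percentile, with the brightest probe set and without probe sets ending in _x_at, _s_at or _a_at. Neurog1, a proneural gene of dorsal progenitors, passed the floor in the knockout sample only on both probe sets, at 797 and 1130.2, against 179 and 558 in the wild type, and was at least 1.54-fold higher on the brighter one. The Hes5 probe sets differed in size and the Neurog1 ones shared a direction.

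**Figure D3:**
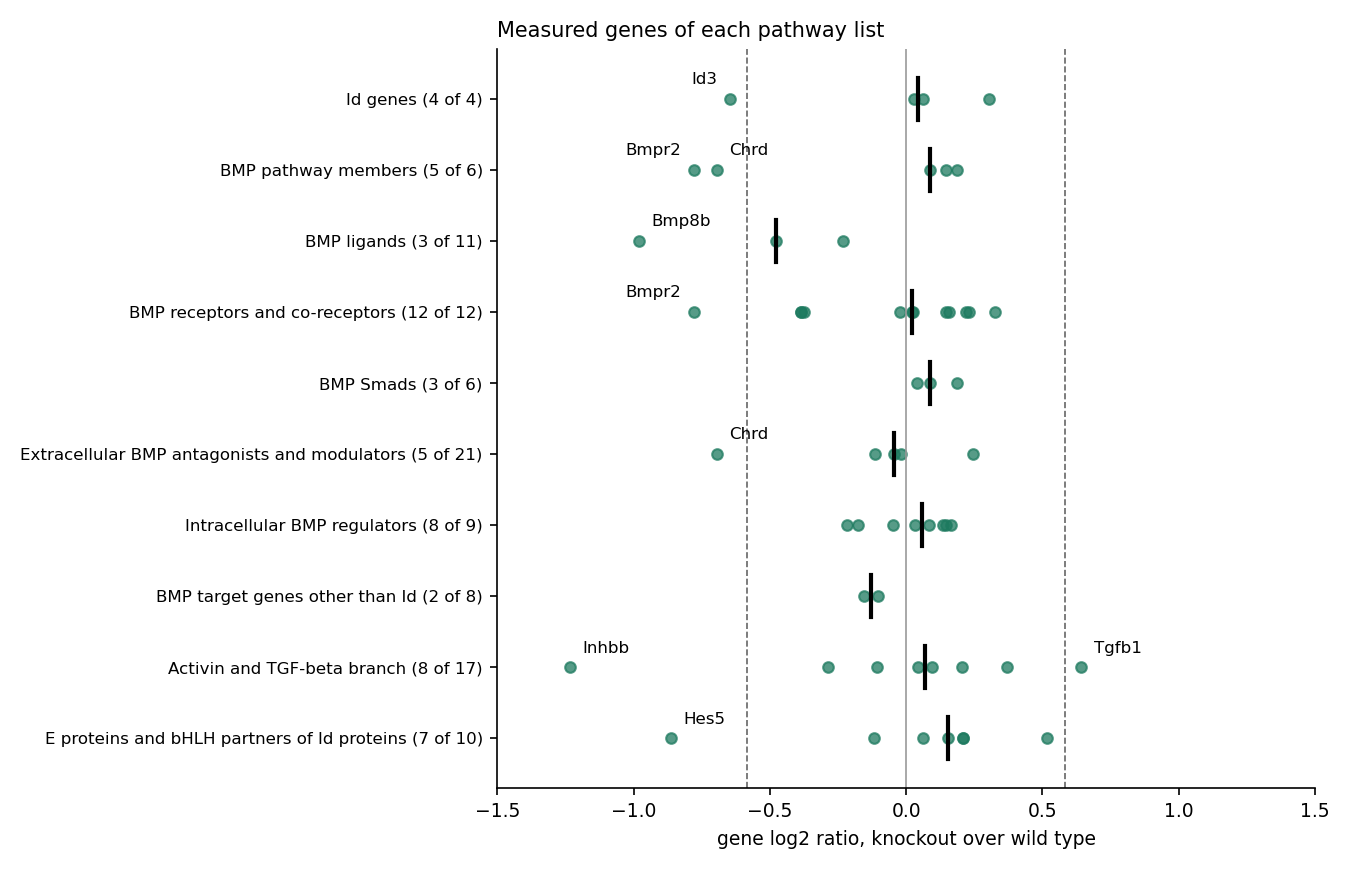
Log2 ratio of knockout over wild type of the measured genes of each pathway list, as points, with the list median as a black bar, dashed lines at 1.5-fold and, in brackets, measured genes of those on the arrays. Most points lie inside the dashed lines, Inhbb at -1.23 and Bmp8b at -0.98 lie farthest out on the lower side, and Tgfb1 at 0.64 is the 1 gene past the upper line, but Inhbb, Bmp8b and Tgfb1 are all inside the lines with the pseudocount.

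Markers of cell types were read beside these values, since in a bulk sample fewer cells of a type and less RNA per cell cannot be told apart. Genes of neural stem and progenitor cells were all measured, with 6 of 8 higher, a median of 0.07 and a summed signal on MOE430A of 157737 in the knockout sample and 147926 in the wild type. Genes of the ventral telencephalon, the labelled source, were lower in 8 of 8 measured of 11 on the arrays, with a median of -0.53 and a sum of 19832 in the knockout sample and 29620.1 in the wild type. Neuron genes were lower in 7 of 8, with a median of -0.19 and sums of 113269 in the knockout sample and 127462 in the wild type. Embryonic globins and other erythroid genes were lower in 3 of 3 measured, with a median of -0.51. Their sums were 214868 in the knockout sample and 279129 in the wild type. These erythroid sums, from 8 probe sets, exceeded the progenitor sums, from 18, in both samples. Hbb-y read 69939 in the knockout sample and 89828 in the wild type on 1436717_x_at. Both samples thus held much globin RNA, which the neurosphere label does not account for. Its part in the other values was not tested. By median, the ventral, neuron, erythroid and microglia lists stood on the lower side. The medians of the other marker lists ran from the endothelial at 0.01, near 0, to the meningeal, mesenchymal and pericyte list at 0.29. The part of any list in the values of the members was not tested. Endothelial cells, which also express Id1 and Id3, had 4 of 9 markers measured, 2 higher and 2 lower, a median of 0.01 and sums of 8979.7 in the knockout sample and 9638 in the wild type on MOE430A. On MOE430B the endothelial sum, from 1 probe set, was 2226 in the knockout sample and 244 in the wild type. The defining endothelial genes Pecam1 and Cdh5 were below the floor in both samples. Astrocyte genes, 4 of 7 measured, had a median of 0.05 with sums of 12110.1 in the knockout sample and 10478 in the wild type, and Gfap passed the floor on 1 probe set, in the knockout sample only. Meningeal, mesenchymal and pericyte genes were higher in 3 of 3 measured of 11, with a median of 0.29 and sums of 9503 in the knockout sample and 8562 in the wild type, and Col1a1 and Pdgfrb were below the floor in both. On MOE430B that sum ran the other way, at 1217 in the knockout sample and 1570.3 in the wild type. Microglia genes had 2 of 6 measured, both lower, with a median of -0.44 and sums of 6481 in the knockout sample and 8068 in the wild type on MOE430A, but 1919 in the knockout sample and 1228 in the wild type on MOE430B. Choroid plexus and roof plate genes had 2 of 7 measured, with a median of 0.18 and sums of 2969 in the knockout sample and 2684 in the wild type, and Ttr, which defines choroid plexus, was below the floor on every probe set.

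**Figure D4:**
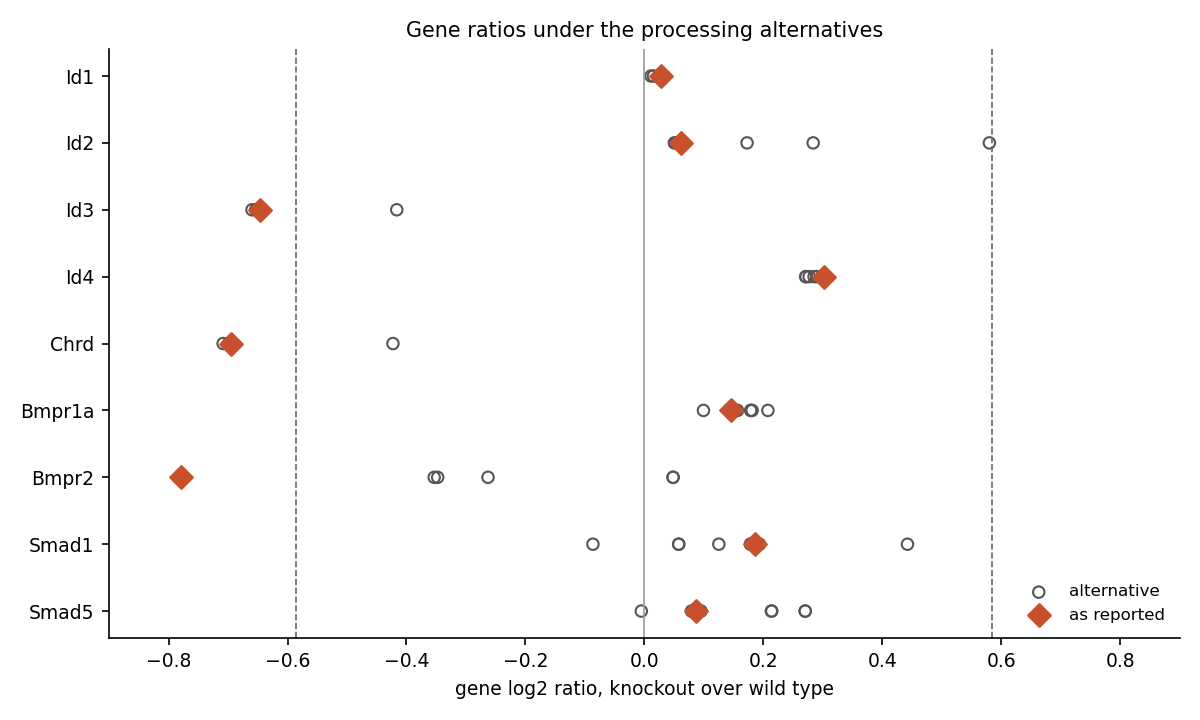
Gene log2 ratios of knockout over wild type as reported (diamonds) and under each processing alternative that measured the gene (open circles), with dashed lines at 1.5-fold. Id3 lies between -0.66 and -0.42 and Chrd between -0.71 and -0.42. Each has 1 probe set, so every alternative reuses the same signals and the sign could hardly change. Id4 stays between 0.27 and 0.30, and Bmpr2 ranges from -0.78 to 0.05.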

How the data were processed

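The deposited values are signal intensities, not logged, made by the authors with MAS5 per the submitters' processing notes, which give no version. The values show that the authors scaled each array to a trimmed mean of about 1500, with 2% taken off each end, and the tables used here hold no detection calls. Per the file headers, knockout and wild-type arrays of a design shared a hybridisation day, and the designs had 2 days, so values within a design are values within a day.

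Log2 ratios of knockout over wild type were centred on the median of measured probe sets, which shifted MOE430A by -0.003 and MOE430B by -0.001. Measured probe sets were 10399 of 22626 on MOE430A and 9528 of 22511 on MOE430B, without 64 control probe sets on each. A probe set above the floor on 1 array gave a bound, the brighter signal over the floor. Spread at like signal was taken over 10 groups of mean signal within a design. Gene symbols came from the platform annotation, with identifiers matched to RefSeq (GRCm38.p6) for current symbols. The members and gene lists were chosen with earlier results of these data known. Named genes were all members and, per pathway list, measured genes or bounds past 1.5-fold or else the 3 farthest from 0; others are said to be chosen after their values were seen. The number of arrays limits the precision. The ratio procedure was tested on simulated arrays with the same noise at every signal level and planted differences of at least 2-fold. The members differed by less and real spread varied with signal, so that test does not cover differences of their size. Alternatives, 11 in all, changed the floor (30th or 70th percentile, none, or a pseudocount equal to it), centring, normalization (quantile, or lowess with a span of 0.3), the probe sets used per gene and the array design. Comparison of Id protein sequences was planned and not run. The tools were pandas 2.3.3, numpy 2.4.6, matplotlib 3.10.9 and statsmodels 0.14.6 under Python 3.11.15.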

Additional observations from a re-analysis of the deposited data

How the results depend on the processing

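No paired analysis was possible because each genotype has 1 sample. A gene ratio or list median counted as moved when it changed by at least 0.31 on the log2 scale. That is the SD of the difference of log2 ratios between designs for shared probe sets. By that measure Id1, Id3, Id4, Chrd, Bmpr1a, Smad1 and Smad5 did not move under any alternative that measured them, though the Smad1 mean ran from -0.09 to 0.44 and that of Smad5 from -0.0052 to 0.27. Id1, Id3 and Chrd have 1 probe set each, so alternatives that change the probe sets or the design could not move them. Id3 and Chrd lost their 1.5-fold difference with the pseudocount and were not measured with the floor at the 70th percentile. Id2 moved to 0.58 with no floor. Bmpr2 turned to 0.048 with the floor at the 70th percentile and with the brightest probe set, and moved to -0.35 with the floor at the 30th percentile and with no floor and to -0.26 with the pseudocount. Under the floors and the brightest rule this follows from which of its 3 probe sets entered. With no floor the median of the BMP ligands moved to -0.91 and that of the BMP Smads to -0.23, and Bmp8b turned to 0.13. List medians kept their sign under each alternative that gave one for the BMP ligands, the intracellular regulators and the other BMP targets. They turned under at least 1 alternative for the Id genes (-0.17 to 0.18), the BMP pathway members (-0.14 to 0.27), the receptors (-0.04 to 0.13), the BMP Smads (-0.23 to 0.36), the antagonists (-0.11 to 0.23), the activin and TGF-beta branch (-0.11 to 0.26) and the partners of Id proteins (-0.09 to 0.16). Genes at least 1.5-fold higher and lower numbered 357 and 393 as reported, 925 and 925 with the floor at the 30th percentile, 136 and 148 with it at the 70th, 3059 and 2856 with no floor, and 126 and 137 on MOE430A alone. Genes at least 2-fold higher and lower numbered 54 and 49 as reported, 215 and 245 with the floor at the 30th percentile, 17 and 16 with it at the 70th, 1635 and 1547 with no floor, and 11 and 9 on MOE430A alone. Low signals limit the Id3, Chrd and ligand values.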

Other observations

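Most BMP ligand probe sets too dim to measure also had the lower signal in the knockout sample, a pattern noticed after the values were seen. The ligand list was written with earlier results known, so the counts are a description and do not show a fall of the ligands. Of 13 ligand probe sets below the floor in both samples, 11 had the lower signal in the knockout sample, where 48.9% of all 19927 such probe sets did. Of all 18 ligand probe sets, those above the floor included, 16 did. The share over all probe sets was not taken, so this second count has no background beside it. Signals below the floor are at a level where MAS5 values scatter widely, several probe sets share a gene, and no fold is given for them. Summed over the 14 ligand probe sets of MOE430A the signal was 2637 in the knockout sample and 4712 in the wild type, and over the 4 of MOE430B it was 2543 in the knockout sample and 5645 in the wild type. The MOE430B sum includes Bmp15 probe sets 1420005_s_at and 1420006_at. They read 115 and 133 in the knockout sample, against 472 and 1211 in the wild type.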
